A study of Mus musculus with 2 samples.

Results

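The mitochondrial genome of RAW264.7 macrophages is described here through 37 rows of a table of 56791 genes, those whose gene symbol starts with mt-. They are 13 mRNAs, 2 ribosomal RNAs and 22 transfer RNAs. RAW264.7 is a mouse monocyte and macrophage line that came from a leukaemia, and the labels give its genotype as WT. The study asked what a preparation named FAPD10-exos, a name the labels do not spell out, does to M2 polarization, the macrophage state that IL-4 induces. As the treatment protocol is read here, the FAPD10-exos culture received 10000000 particles of FAPD10-exos over 24 h in medium with 20 ng of mouse recombinant IL-4, and the vehicle culture had the IL-4 without the particles. Each group held 1 RNA-seq library, so no difference below has a replicate check, no test across samples can be run, and every comparison is between these 2 libraries of a single cell line.

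The FAPD10-exos library held 37196241 counts and the vehicle library 36152743. Levels are given in CPM, counts per 1000000 of a library size scaled by the TMM method, and between genes in CPM per kilobase of row length. Ratios are FAPD10-exos over vehicle, with a 95% counting interval in parentheses that takes each count as an independent read. Low counts were mostly even numbers, 76.3% in the FAPD10-exos library and 75.1% in the vehicle library, so each fragment may have been counted at both ends and the intervals may be too narrow. A row was called higher or lower when its mean was at least 1 CPM, its ratio was at least 1.5-fold from 1 and its interval excluded 1. All 8 macrophage marker genes on a list of such markers had counts, with summed levels of 2131 CPM in the FAPD10-exos library and 2343 CPM in the vehicle library and single ratios from 0.643 for Ptprc to 2.91 for Adgre1. Markers of fibroblasts, endothelium, epithelium, T cells and muscle summed to at most 0.731 CPM per list in either library. In bulk RNA, fewer cells of a kind and less RNA per cell cannot be told apart.

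Mammalian mitochondrial DNA is a small circle transcribed from both strands into long precursors that cover many genes. Most mRNAs and the rRNAs lie between tRNAs, and excision of the tRNAs by RNase P and ELAC2 releases them, a scheme known as tRNA punctuation. The mRNAs encode core subunits of respiratory complexes I, III and IV and of the ATP synthase, complex V, whose other subunits come from nuclear genes. Pieces of mitochondrial DNA have also been inserted into the nuclear genome during evolution, and reads from such a copy and from the mitochondrial gene can be hard to separate.

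Such copies bear on many of the levels below. All 37 rows had the same start, end and strand as in GENCODE M21 on GRCm38, whose transcript sequences were compared with each other. Of the 13 mRNAs, 7 had a copy of at least 99% identity among annotated nuclear transcripts, in 7 pseudogene rows on the minus strand of chromosome 1 between 24650616 and 24655278 in the coordinates of the deposited table, which follow a mouse build not given in the sources used here. Over 4140 aligned bases the copies differed from the mitochondrial genes at 2 positions, and 5 of the 7 showed no difference. The windows that follow, from GENCODE M21, show an identical stretch of mt-Atp6 and Gm10925 and both differences, with the differing base in capitals.
mt-Atp6: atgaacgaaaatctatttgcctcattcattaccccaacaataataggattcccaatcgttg
Gm10925: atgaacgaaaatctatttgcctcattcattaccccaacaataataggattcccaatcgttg
mt-Nd3: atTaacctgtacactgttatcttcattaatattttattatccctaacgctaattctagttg
Gm28438: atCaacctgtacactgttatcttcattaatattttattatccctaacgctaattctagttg
mt-Co1: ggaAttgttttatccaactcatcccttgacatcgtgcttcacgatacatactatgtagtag
Gm29216: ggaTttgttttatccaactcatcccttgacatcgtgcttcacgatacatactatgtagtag
The mt-Atp6 window covers chrMT:7927-7987, the mt-Nd3 window chrMT:9459-9519 and the mt-Co1 window chrMT:6390-6450, all on the plus strand. Counted from 1 at the 5′ end of the mitochondrial gene, with its base given before the position, the differences are T3C in mt-Nd3 and A1066T in mt-Co1.

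The 6 tRNAs with the ratios farthest from 1 in either direction, among those with at least 10 counts in each library, are shown next, also from GENCODE M21, with the anticodon in capitals. Each anticodon was taken as its 3 letters preceded by C or T and followed by A or G near the centre of the molecule, where exactly 1 match was found in each. They decode valine, isoleucine, tyrosine, serine, threonine and proline, in the order of the lines, which is also the order of the genes on the genome.
mt-Tv: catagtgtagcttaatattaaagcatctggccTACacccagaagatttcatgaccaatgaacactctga
mt-Ti: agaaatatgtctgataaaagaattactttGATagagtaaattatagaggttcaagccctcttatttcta
mt-Ty: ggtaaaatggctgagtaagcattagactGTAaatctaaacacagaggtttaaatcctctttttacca
mt-Ts1: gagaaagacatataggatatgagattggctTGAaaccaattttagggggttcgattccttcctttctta
mt-Tt: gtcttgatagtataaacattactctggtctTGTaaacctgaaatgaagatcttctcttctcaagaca
mt-Tp: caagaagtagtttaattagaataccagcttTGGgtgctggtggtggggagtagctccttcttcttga

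As a whole, the 37 rows took a slightly larger part of the FAPD10-exos library. They held 228197 counts in the FAPD10-exos library and 210107 in the vehicle library, or 0.613% (exact binomial interval 0.611 to 0.616) of all counts in the FAPD10-exos library and 0.581% (0.579 to 0.584) in the vehicle library. The ratio of the sums was 1.15 (1.15 to 1.16). Scaling by total counts brought it to 1.06. The mRNAs held most of these counts, with 220526 in the FAPD10-exos library and 203269 in the vehicle library and a ratio of 1.15. The rRNAs held 3066 counts in the FAPD10-exos library and 2491 in the vehicle library, and the tRNAs 4605 in the FAPD10-exos library and 4347 in the vehicle library.

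Levels along the genome were very uneven in both libraries. Per kilobase, the mRNAs ran from 1.58 CPM for mt-Co3 to 2624 CPM for mt-Nd6 in the FAPD10-exos library, and from 1.35 to 1659 CPM for the same genes in the vehicle library. mt-Nd5 and mt-Nd6, at neighbouring places on opposite strands, together with mt-Nd1, mt-Nd4l and mt-Cytb, were the rows with the highest levels per kilobase in both libraries. The 5 lowest mRNAs were mt-Co2, mt-Atp6, mt-Co3, mt-Nd3 and mt-Atp8, at 87.9 CPM per kilobase or less in the FAPD10-exos library and 52.1 or less in the vehicle library. All of them but mt-Atp8 have a near-identical annotated nuclear copy. mt-Atp8 overlaps mt-Atp6 and lies between genes with copies, where unannotated nuclear sequence was not searched. Across the 13 mRNAs the level per kilobase and the share of 100-base stretches found exactly in annotated nuclear transcripts had a Spearman rho of -0.58 in the FAPD10-exos library and -0.59 in the vehicle library, as a description of 13 rows of the same libraries, 12 of them on 1 strand.

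**Figure D1:**
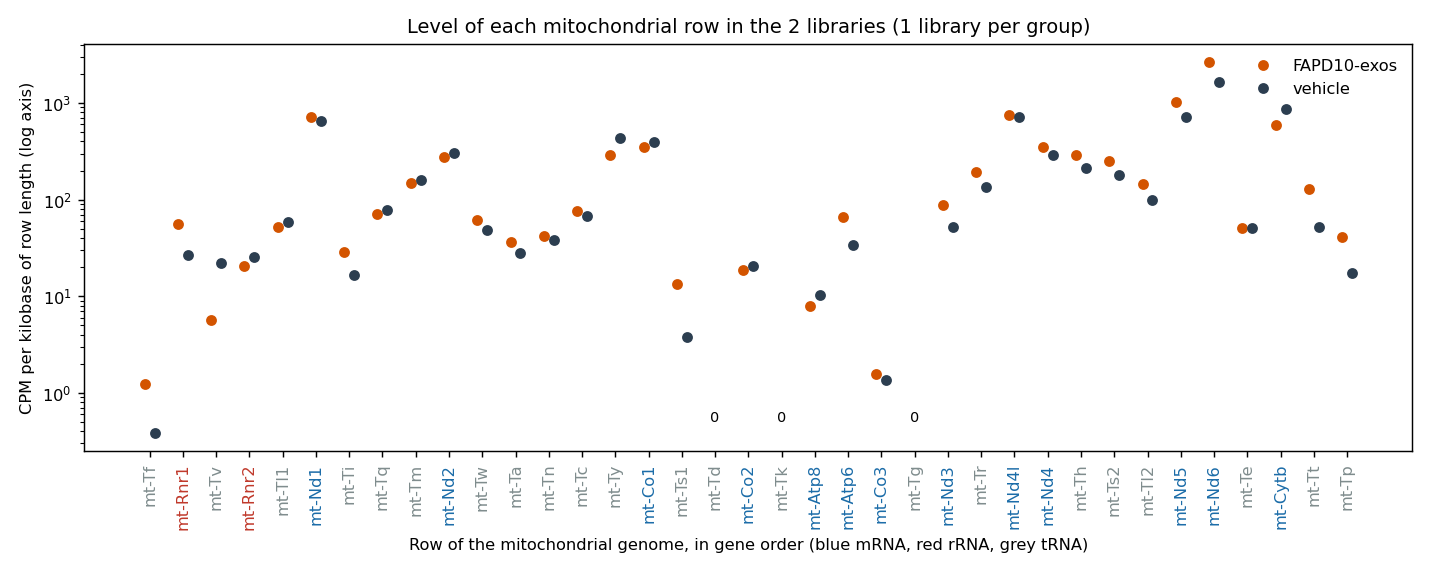
Level of each of the 37 mitochondrial rows in gene order, in CPM per kilobase of row length on a log axis, with 1 point per library (FAPD10-exos left, vehicle right of each tick) and 0 printed for rows without a count. The points of both libraries follow the same uneven profile, with mt-Nd6 highest and mt-Co3 lowest among the mRNAs.

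Complex I, the NADH dehydrogenase that feeds electrons from NADH into the chain, has 7 subunits encoded here, and their summed counts were 174926 in the FAPD10-exos library and 141408 in the vehicle library, with a ratio of 1.31 (1.30 to 1.32). The largest differences in counts were those of mt-Nd5 and mt-Nd6. mt-Nd5, a subunit of the proton-pumping membrane arm, had 65876 counts in the FAPD10-exos library and 49327 in the vehicle library, with a ratio of 1.42 (1.40 to 1.44). It alone held 28.9% of all mitochondrial counts in the FAPD10-exos library and 23.5% in the vehicle library. mt-Nd6, the only mRNA whose coding sequence lies on the minus strand, had 48452 counts in the FAPD10-exos library and 32537 in the vehicle library. Its ratio of 1.58 (1.56 to 1.60) met the rule for higher, though not under scaling by total counts, where it was 1.45. The strand setting of the counting is not given, so transcripts of both strands may enter this row.

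mt-Nd3, a small membrane subunit of complex I, had 1089 counts in the FAPD10-exos library and 685 in the vehicle library and was called higher at 1.69 (1.53 to 1.86). mt-Nd4, another membrane-arm subunit, had 17075 counts in the FAPD10-exos library and 15075 in the vehicle library, with a ratio of 1.20 (1.18 to 1.23). The rest of complex I had ratios closer to 1. mt-Nd1 had 24161 counts in the FAPD10-exos library and 23686 in the vehicle library. mt-Nd4l had 8020 in the FAPD10-exos and 8107 in the vehicle library, and mt-Nd2 10253 in the FAPD10-exos and 11991 in the vehicle library. The ratios of the 3 genes were 1.08 for mt-Nd1, 1.05 for mt-Nd4l and 0.908 for mt-Nd2, and those of mt-Nd1 and mt-Nd4l were below 1 under scaling by total counts.

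mt-Cytb, the cytochrome b of complex III, went the other way from its neighbour mt-Nd6. It had 24278 counts in the FAPD10-exos library and 37044 in the vehicle library, so the row was lower in the FAPD10-exos library at a ratio of 0.696 (0.685 to 0.707). This is short of the 1.5-fold rule, which the ratio met at 0.637 under scaling by total counts. It made up 10.6% of the mitochondrial counts in the FAPD10-exos library and 17.6% in the vehicle library.

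None of the 3 cytochrome c oxidase subunits of complex IV met the call rule. mt-Co1, the catalytic subunit, had 19170 counts in the FAPD10-exos library and 23293 in the vehicle library, with a ratio of 0.874 (0.857 to 0.891). mt-Co2, which takes electrons from cytochrome c, had only 450 counts in the FAPD10-exos library and 532 in the vehicle library, and mt-Co3 had 44 in the FAPD10-exos library and 40 in the vehicle library. The intervals of both included 1, and that of mt-Co3, 0.744 to 1.84, was too wide to show a small difference. Of the 2 ATP synthase subunits, mt-Atp6, which forms part of the proton channel, had 1601 counts in the FAPD10-exos library and 873 in the vehicle library and stood highest of the mRNAs at 1.95 (1.79 to 2.12). mt-Atp8, whose reading frame overlaps that of mt-Atp6, had 57 counts in the FAPD10-exos library and 79 in the vehicle library, with a ratio of 0.766 (0.535 to 1.09).

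By the call rule, 3 of the 13 mRNAs were higher (mt-Atp6, mt-Nd3 and mt-Nd6), 0 were lower and 10 lay between. Among all 12264 measured rows, 17.1% were called higher and 19.8% lower, so the number of higher mRNAs was near the background. Intervals that excluded 1, whatever the size of the ratio, lay above 1 for 7 mRNAs and below 1 for 3. The share of all measured rows under this looser rule was not counted, so these numbers have no background. With many counts a small ratio is enough, as for mt-Nd4l at 1.05 (1.02 to 1.08). At a 2-fold threshold, which 4.19% of all measured rows passed as higher and 8.64% as lower, 0 of the 13 were called in either direction. The median log2 ratio of the 13 was 0.12, beside 0.01 for all measured rows.

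The rRNAs, which form the core of the mitochondrial ribosome, split. mt-Rnr1, the 12S rRNA of the small subunit, had 1915 counts in the FAPD10-exos library and 974 in the vehicle library, with a ratio of 2.09 (1.93 to 2.26). mt-Rnr2, the 16S rRNA of the large subunit, had 1151 counts in the FAPD10-exos library and 1517 in the vehicle library, with a ratio of 0.806 (0.746 to 0.871). The level per kilobase of mt-Rnr1 was thus 56.4 CPM in the FAPD10-exos library and 27.0 CPM in the vehicle library, while that of mt-Rnr2 was 20.4 CPM in the FAPD10-exos library and 25.4 CPM in the vehicle library. Both were below the median of the mRNAs, 348 CPM per kilobase in the FAPD10-exos library and 306 in the vehicle library. Whether rRNA was removed or mRNA selected is not stated in the labels.

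**Figure D2:**
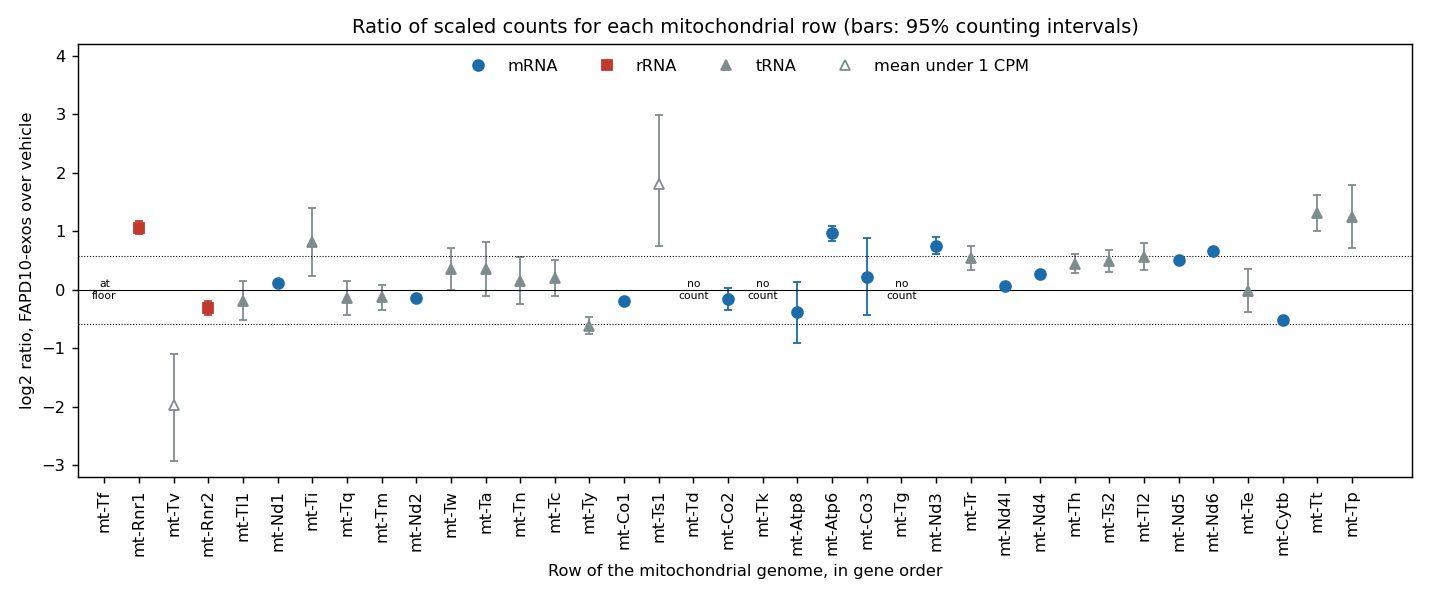
log2 ratio of FAPD10-exos over vehicle for the mitochondrial rows in gene order, with 95% counting intervals as bars, dotted lines at 1.5-fold in either direction and open symbols for rows with a mean under 1 CPM. mt-Rnr1, mt-Ts1, mt-Atp6, mt-Tt and mt-Tp stand near or above a log2 ratio of 1, mt-Tv near -2, mt-Cytb at -0.52 and mt-Ty at -0.61. Rows without a count and mt-Tf, whose counts are at the floor of 3, have no point.

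tRNAs are the adaptors of mitochondrial translation, and their rows span only 59 to 75 bases, so a count here may come from an unprocessed precursor or a neighbouring RNA as well as from the tRNA. Of the 22 rows, 19 had a count and 16 a mean of at least 1 CPM. The rows of mt-Td, mt-Tk and mt-Tg had 0 counts in both libraries, which allows up to 3 counts, or 0.0843 CPM in the FAPD10-exos library and 0.0794 CPM in the vehicle library. That bound covers reads assigned to these rows only. The 3 rows lie between mt-Co1 and mt-Nd3, mRNAs with near-identical copies on chromosome 1. Nuclear sequence between annotated transcripts was not searched, so whether reads of these tRNAs were lost to a copy was not tested. mt-Tf had 3 counts in the FAPD10-exos library and 1 in the vehicle library. By the call rule 3 of 16 were higher and 1 was lower, beside 17.1% and 19.8% of all measured rows. At a 2-fold threshold 2 of the 16 were higher and 0 lower, beside 4.19% and 8.64% of all measured rows.

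The tRNAs with the highest ratios among the 16 close the gene order. mt-Tt, for threonine, had 305 counts in the FAPD10-exos library and 131 in the vehicle library, with a ratio of 2.47 (2.01 to 3.06). mt-Tp, for proline, on the opposite strand, had 98 counts in the FAPD10-exos library and 44 in the vehicle library, with a ratio of 2.37 (1.64 to 3.46). The gene before them, mt-Cytb, had a ratio of 0.696, short of the rule for lower. mt-Ti, for isoleucine, had 71 counts in the FAPD10-exos library and 43 in the vehicle library, with a ratio of 1.75 (1.18 to 2.62) whose interval reached 0.999 with counts halved.

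mt-Ty, for tyrosine, was the only tRNA called lower. It had 683 counts in the FAPD10-exos library and 1108 in the vehicle library, with a ratio of 0.655 (0.594 to 0.721), and the most tRNA counts in the vehicle library. The other members of its cluster between mt-Nd2 and mt-Co1, mt-Tw, mt-Ta, mt-Tn and mt-Tc, for tryptophan, alanine, asparagine and cysteine, had ratios from 1.11 to 1.28 with intervals that included 1. Below the filter on low values lay mt-Tv, for valine, with 14 counts in the FAPD10-exos library and 58 in the vehicle library, and mt-Ts1, for serine, with 33 in the FAPD10-exos library and 10 in the vehicle library. Their ratios were 0.256 (0.132 to 0.465) and 3.50 (1.69 to 7.97), and neither interval reached 1 with counts halved. mt-Tv lies between mt-Rnr1, which was called higher, and mt-Rnr2, whose ratio of 0.806 did not meet the rule for lower.

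The cluster of mt-Th, mt-Ts2 and mt-Tl2, for histidine, serine and leucine, sits between mt-Nd4 and mt-Nd5, and its ratios lay close to those of these mRNAs. Together the cluster had 1595 counts in the FAPD10-exos library and 1208 in the vehicle library, with a ratio of 1.40 (1.30 to 1.51), beside 1.20 for mt-Nd4 and 1.42 for mt-Nd5. mt-Tr, for arginine, at 1.46 also lay between its flanking mRNAs mt-Nd3 and mt-Nd4l. Of the 14 measured tRNAs with an mRNA or rRNA on both sides, 6 had a ratio between those of their flanks, 6 above both and 2 below both. These places rest on the ratios alone, without their intervals. Among the tRNAs outside their flanks, the intervals of mt-Tq, mt-Tn and mt-Tl2 reached a flanking ratio, and those of the others did not. With counts halved, those of mt-Ti, mt-Tw, mt-Ta and mt-Tc reached one too, and only that of mt-Ty did not. The flanking ratios were taken as exact here. By coding strand, the 14 plus-strand tRNAs summed to 3109 counts in the FAPD10-exos library and 2497 in the vehicle library, with a ratio of 1.32 (1.25 to 1.39). The 8 minus-strand tRNAs summed to 1496 in the FAPD10-exos and 1850 in the vehicle library, with a ratio of 0.859 (0.802 to 0.920), which rested on mt-Ty. Without it, the other 7 summed to 813 counts in the FAPD10-exos library and 742 in the vehicle library, with a ratio of 1.16 (1.05 to 1.29). The strand setting of the counting is not given, so these sums may not separate the transcripts of the strands.

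The nuclear copies held more counts than the mitochondrial mRNA rows they match. The 7 rows on chromosome 1 summed to 259833 counts in the FAPD10-exos library and 179756 in the vehicle library, whereas the matching 7 mitochondrial rows summed to 47449 in the FAPD10-exos library and 48605 in the vehicle library. Gm10925, identical to mt-Atp6 over 678 aligned bases as in the window above, had 193426 counts in the FAPD10-exos library and 111505 in the vehicle library. It therefore took 99.2% of the counts of the pair in both libraries. The copy and the gene had similar ratios, 1.84 (1.83 to 1.86) for Gm10925 and 1.95 for mt-Atp6, and the pair summed to a ratio of 1.84.

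For mt-Co2 and mt-Co3 the copies also took nearly all counts. Gm28661, the copy of mt-Co2, had 39200 counts in the FAPD10-exos library and 48966 in the vehicle library, with a ratio of 0.850 (0.839 to 0.862) beside 0.898 for the gene. Gm28437, the copy of mt-Co3, had 14162 counts in the FAPD10-exos library and 11459 in the vehicle library, with a ratio of 1.31 (1.28 to 1.35) beside 1.17 for the gene. At the distal end the division was reversed. Gm10222 held 5.97% of the counts of its pair with mt-Nd4l in the FAPD10-exos library and 5.58% in the vehicle library, and Gm28439 held 0.385% of its pair with mt-Nd4 in the FAPD10-exos library and 0.218% in the vehicle library. Over the aligned bases, gene and copy had no difference in any of the pairs of this paragraph.

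The division between gene and copy also differed between the libraries for mt-Co1. Gm29216, which matches its 3′ part over 483 bases, had 10759 counts in the FAPD10-exos library and 5933 in the vehicle library, with a ratio of 1.93 (1.87 to 1.99), while mt-Co1 had a ratio of 0.874. The copy held 35.9% (35.4 to 36.5) of the pair in the FAPD10-exos library and 20.3% (19.8 to 20.8) in the vehicle library, and the pair summed to a ratio of 1.09 (1.07 to 1.11). Gm28438 held 61.1% (59.3 to 62.9) of its pair with mt-Nd3 in the FAPD10-exos library and 66.8% (64.8 to 68.9) in the vehicle library. The pair summed to 1.44 (1.36 to 1.52), below the 1.5-fold rule that mt-Nd3 met on its own. With the 7 copies added, the mRNA sum had a ratio of 1.33, against 1.15 without them, and without Gm10925 the copies had a ratio of 1.03. How many reads of these pairs came from either genome was not tested.

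**Figure D3:**
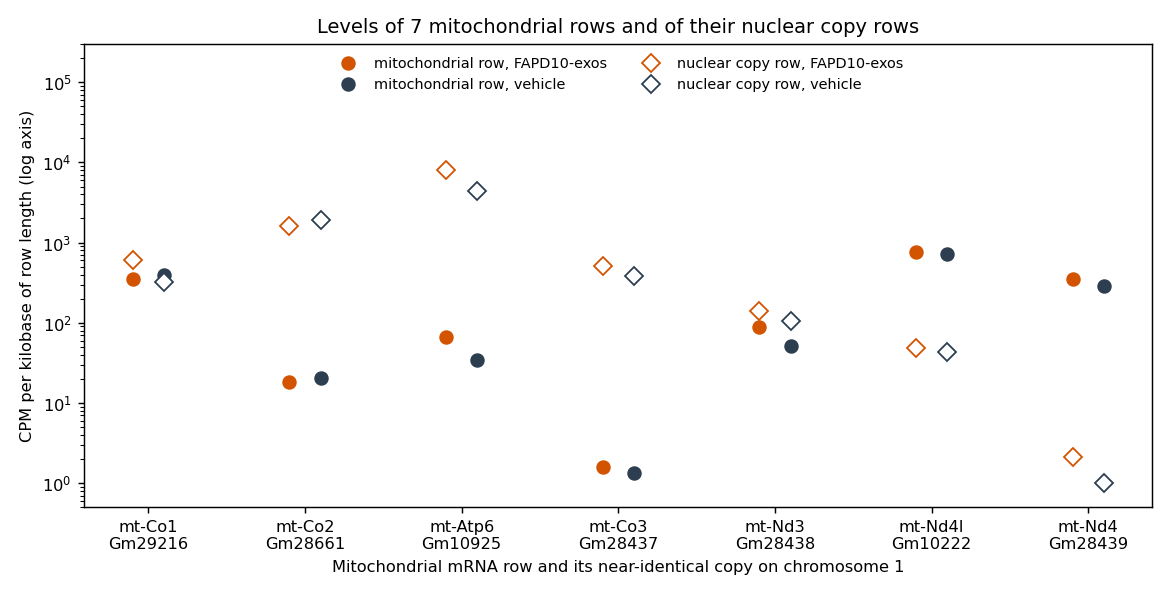
CPM per kilobase of row length, on a log axis, of 7 mitochondrial mRNA rows (filled circles) and of their copies on chromosome 1 (open diamonds), with FAPD10-exos left and vehicle right of each tick, 1 library each. The copy lies far above the gene for mt-Co2, mt-Atp6 and mt-Co3 and far below it for mt-Nd4l and mt-Nd4.

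By their own rows, all mitochondrial subunits other than mt-Atp6 had lower ratios than the median nuclear-encoded subunit of the same complex. This is a description of lists chosen with earlier results known, and the copies on chromosome 1 were left out. The counts below stand beside 17.1% of all measured rows called higher and 19.8% called lower, or 12.3% and 16.2% after the correction for row length that the next results describe. In complex I, 26 of 36 nuclear genes were called higher and 0 lower, at a median of 0.78 in log2, while the 7 mitochondrial genes had log2 ratios from -0.14 to 0.76. In complex III, 6 of 9 nuclear genes were higher and 0 lower, with a median of 0.70, and Uqcrfs1, the Rieske iron-sulfur protein, had 2362 counts in the FAPD10-exos library and 1158 in the vehicle library, with a ratio of 2.17. mt-Cytb, the mitochondrial member of that complex, had a log2 ratio of -0.52. In complex IV, 9 of 11 nuclear genes were higher and 0 lower, with a median of 0.89, against -0.19, -0.15 and 0.22 for mt-Co1, mt-Co2 and mt-Co3. In complex V, 10 of 15 nuclear genes were higher and 0 lower, with a median of 0.89, a value that mt-Atp6 exceeded at 0.96 and mt-Atp8 did not reach at -0.38. After the correction for row length, 9 of the 36 nuclear genes of complex I, 2 of 9 of complex III, 3 of 11 of complex IV and 7 of 15 of complex V were called higher and 0 lower in each. Their medians were then 0.41 for complex I, 0.39 for complex III and 0.49 each for complexes IV and V. mt-Cytb then stood at -0.89, mt-Co1 at -0.62, mt-Co2 at -0.61, mt-Co3 at -0.28, mt-Atp6 at 0.50 and mt-Atp8 at -0.75. Processed pseudogenes can share reads of the nuclear subunits, so their single values are uncertain. The copies on chromosome 1 bear on the mitochondrial values in the same way. With Gm10925 added, mt-Atp6 had an uncorrected log2 ratio of 0.88, below the complex V median of 0.89. The counting interval of the mt-Atp6 row alone, 1.79 to 2.12 as a ratio, included that median. The pair sums of the other genes with copies also lay below the nuclear median of their complex.

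**Figure D4:**
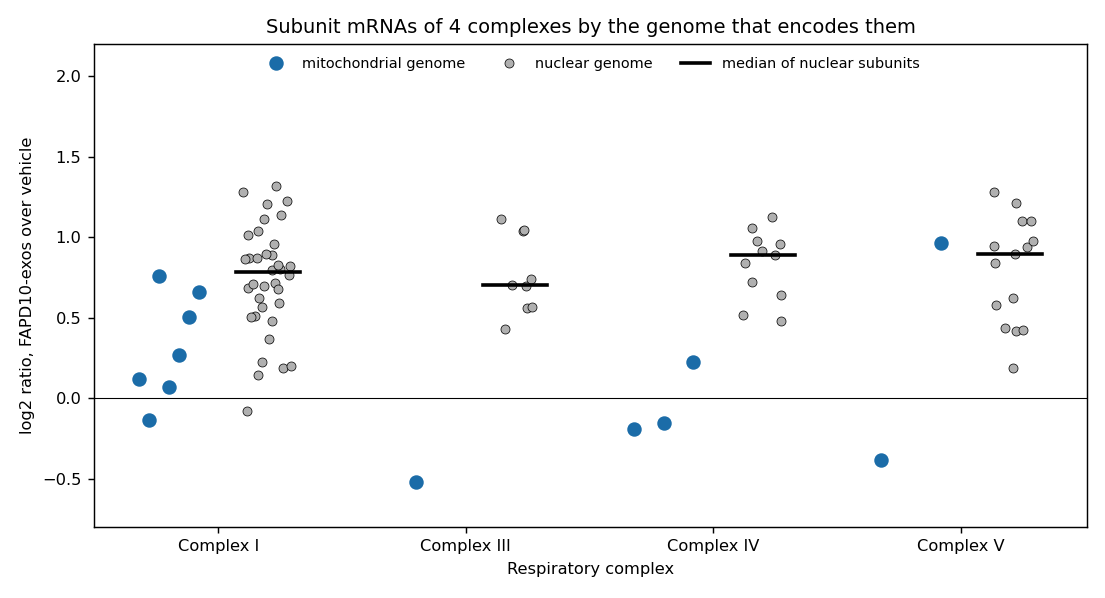
log2 ratio of FAPD10-exos over vehicle for subunit mRNAs of complexes I, III, IV and V, with mitochondrial genes left (blue) and nuclear genes right (grey, with the median as a bar). mt-Cytb, the complex IV genes and mt-Atp8 lie below the nuclear genes of their complexes, and mt-Atp6 lies among them.

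Row length moved with these ratios. Over 12233 measured rows outside the mitochondrial genome, the log2 ratio and row length had a Spearman rho of -0.45, as a description across genes of the same libraries. The rows nearest in length to each mitochondrial mRNA stood at 0.34 to 0.53 in log2, taking the median of the 200 nearest. After that value was subtracted, 0 of the 13 mRNAs were called higher and 4 lower (mt-Cytb, mt-Atp8, mt-Co1 and mt-Co2), beside 12.3% and 16.2% of all measured rows, and their median log2 ratio was -0.28. The mRNA sum then had a ratio of 0.857. The corrected intervals take the subtracted value as exact. Before the correction, the intervals of mt-Atp8 and mt-Co2 included 1. With Gm29216 added, mt-Co1 had an uncorrected ratio of 1.09. With Gm28661 added, mt-Co2 had one of 0.851. Corrected ratios of these pairs were not computed. After the correction, mt-Tt and mt-Tp remained higher and mt-Ty lower among the tRNAs, at 0.95, 0.88 and -0.97 in log2. mt-Rnr1 then stood at 0.71 and mt-Rnr2 at -0.72. The value subtracted was the same, 0.36, for every tRNA row. How close in length the reference rows were to a tRNA, or to the short row of mt-Atp8, was not examined. The values of the tRNAs and of mt-Atp8 are thus not shown to be matched for length. Within the 13 mRNAs themselves the rho with length was -0.12. The part of row length in the ratios was not tested.

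Nuclear genes that copy, transcribe and mature the mitochondrial genome lay mostly between the thresholds, and the counts of higher and lower genes in each list are to be read against 17.1% and 19.8% of all measured rows. Of 22 measured genes of transcription and mitochondrial DNA maintenance, 4 were higher and 1 lower, at a median of 0.29 in log2. Mterf3, a repressor of mitochondrial transcription, had 685 counts in the FAPD10-exos library and 386 in the vehicle library, with a ratio of 1.88 (1.66 to 2.14), and Top1mt, the mitochondrial topoisomerase, had 1780 in the FAPD10-exos and 1135 in the vehicle library, with a ratio of 1.67 (1.55 to 1.80). Lig3, the DNA ligase that mitochondria share with the nucleus, was lower, with 849 counts in the FAPD10-exos library and 1674 in the vehicle library, with a ratio of 0.539 (0.495 to 0.585). Of 21 measured genes of RNA processing, stability and decay, 4 were higher and 0 lower. Among the higher were Slirp, which with Lrpprc stabilises mitochondrial mRNAs, at 1.73 (1.66 to 1.81), and Rexo2, an oligoribonuclease, at 1.64 (1.60 to 1.68). Hsd17b10, a subunit of the mitochondrial RNase P, was higher at 1.63 (1.49 to 1.78). Lrpprc at 1.15 (1.09 to 1.22) was not called. Nor were the other RNase P subunits, Trmt10c at 0.924 (0.869 to 0.982) and Prorp at 0.839 (0.743 to 0.946). Lrpprc, Trmt10c and Prorp were named after their values were seen. Of 25 measured genes of RNA modification, 8 were higher and 2 lower. The lower genes, named after their values were seen, were Qtrt2, a subunit of the enzyme that places queuosine in tRNAs, at a ratio of 0.585 (0.496 to 0.688), and Trmt61b, a tRNA methyltransferase, at 0.622 (0.492 to 0.783). Mrm2, which methylates the 16S rRNA, had 231 counts in the FAPD10-exos library and 104 in the vehicle library, with a ratio of 2.36 and a lower bound of 1.86, and Rpusd4, a pseudouridine synthase of the same rRNA, had a ratio of 1.82 (1.67 to 1.98). Under scaling by total counts the numbers of higher genes in these lists were 3, 2 and 4 in the order given. The share of all measured rows under that scaling was not counted. After the correction for row length 4 genes were higher and 1 lower in the list of transcription and maintenance, 2 higher and 1 lower in that of processing and decay, and 3 higher and 1 lower in that of modification. These counts stand beside 12.3% higher and 16.2% lower among all measured rows after the same correction.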

How the data were processed

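The authors deposited a single table of raw, whole-number counts per gene for both libraries, in the layout that featureCounts writes, per the file headers. Reads went through fastp 0.23.4 and STAR 2.5.3a before featureCounts, per the submitters' processing notes, which name the human build GRCh38 although the symbols are mouse. The annotation release, strand setting, library selection and treatment of reads that match several places or rows were not given in the sources used here. All 37 mitochondrial rows were matched by symbol to GENCODE M21 (GRCm38).

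Effective library sizes came from TMM in edgeR 4.0.16 (R 4.3.3), with factors of 0.957 for the FAPD10-exos and 1.05 for the vehicle library. Thus 35.6 counts gave 1 CPM in the FAPD10-exos library and 37.8 in the vehicle library. Since each group holds 1 library, the quasi-likelihood test of edgeR has no residual degrees of freedom, and no p-value was computed. Ratios carry a 95% exact Clopper-Pearson interval of the FAPD10-exos share of both counts. All intervals and floors cover counting error only. Mitochondrial transcripts were compared with all other transcripts by blastn 2.17.0, keeping matches of at least 90% identity over at least 50 bases. Only annotated transcripts were searched. The procedure was tested on simulated counts drawn independently of each other. Such counts cannot check the intervals where fragments are counted at both ends or where cultures differ.

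Members, lists and thresholds were chosen with earlier results of these data known, and the search for nuclear copies at 99% identity was defined after the counts were seen. All 37 members could be named, and in each nuclear list up to 4 genes with at least 100 counts and the largest absolute log2 ratio, of which the text gives a part. Outside this rule, Qtrt2, Trmt61b, Lrpprc, Trmt10c and Prorp were named after their values were seen. Alternatives were 3 other scalings, library sizes without the mitochondrial rows, halved counts, a length correction, 1 CPM added, other filters and a 2-fold threshold. Median of ratios came from DESeq2 1.42.0.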

Additional observations from a re-analysis of the deposited data

How the results depend on the processing

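The ratio of all mitochondrial counts, 1.15, was 1.06 with total counts as the scaling, 1.12 with median of ratios, 1.21 with upper quartile and 0.859 after the row length correction. The mRNA ratio, 1.15, was 1.05, 1.12, 1.21 and 0.857 under the same alternatives, 1.08 as a median over rows and 1.07 without mt-Nd5. In steps added after the data were seen, it was 1.33 with the nuclear copies and 1.19 over the 6 mRNAs without an annotated one. These 6 include mt-Atp8, which overlaps mt-Atp6 and lies between genes with copies. The rRNA ratio, 1.31, was 1.20 under total counts, 1.01 after the length correction, 2.09 for mt-Rnr1 alone and 0.806 for mt-Rnr2 alone. The tRNA ratio, 1.13, was 1.03 under total counts, 1.18 under upper quartile, 0.876 after the length correction and 1.28 as a median over measured rows.

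The 3 mRNAs called higher became 0 after the length correction and 0 at a 2-fold threshold, and the 0 called lower became 1 under total counts and 4 after the length correction. The 3 tRNAs called higher became 5 under upper quartile. They became 0 at a mean of at least 10 CPM, because that filter removed mt-Tt, mt-Tp and mt-Ti. The 1 tRNA called lower became 0 under upper quartile, 2 without a filter and 0 at a 2-fold threshold. Of all measured rows, 12.3% were higher and 16.2% lower after the length correction, and 4.19% and 8.64% at the 2-fold threshold. Under the other scalings and filters these shares were not counted, so those numbers of calls have no background. The median over all measured rows shifted in log2 by -0.128 with total counts, -0.043 with median of ratios and 0.068 with upper quartile. The cause of these shifts was not tested. No paired analysis was possible because each group has 1 library. Depth limits the tRNA rows under 1 CPM, where intervals are wide, as for mt-Ts1 at 1.69 to 7.97. Intervals with halved counts still excluded 1 for all called rows except mt-Ti.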

Other observations

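Nuclear rows with a match to mitochondrial sequence at under 99% identity were also among the rows of the table, and most of them had few counts. On chromosome 2, Gm13340, a copy of the whole of mt-Co1 at 97.6% identity, had 204 counts in the FAPD10-exos library and 464 in the vehicle library, and Gm13341, a copy of mt-Co2 at 95.9% identity, had 204 in the FAPD10-exos library and 244 in the vehicle library. Gm13339, which matches the distal part of mt-Nd2 at 96.7% identity, had 20 counts in the FAPD10-exos library and 24 in the vehicle library. The pseudogenes Gm11407, Gm11408 and Gm11410 on chromosome 4, which match mt-Nd5, mt-Nd6 and mt-Cytb at 92.3%, 93.6% and 92.9% identity, had 46, 2 and 0 counts in the FAPD10-exos library and 56, 2 and 0 in the vehicle library. In total, 9 such rows, all named with a Gm number, held 490 counts in the FAPD10-exos library and 796 in the vehicle library. The tenth row was Cep295 on chromosome 9, a protein-coding gene with a retained-intron transcript that matches mt-Tl1 over 62 bases at 93.6% identity and mt-Tn over 71 bases at 91.6%. It had 2665 counts in the FAPD10-exos library and 7053 in the vehicle library over all its exons.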
